A study of Homo sapiens with 56 samples.

Results

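The 10 genes described here, PECAM1, KDR, FLT1, TEK, TIE1, VWF, CLDN5, ESAM, EGFL7 and CD34, are best known from the endothelium, the cell layer that lines blood vessels, and their levels were read in 28 established ovarian cancer cell lines. They are 10 of the 18377 genes that the arrays measured with a probe set annotated to a single gene, and all 10 had a value on every array. The genes, and the lines TYKNU and OV17R that stood out for them, were selected on measured levels in these same arrays, so the levels below are a description and carry no test between lines. Total RNA of every line was hybridised to 2 Human Gene ST arrays of Affymetrix, 56 in all, and the values are log2 intensities. The lines carried no treatment and differed in growth medium, DMEM being used for 10 lines, RPMI for 9 and DMEM/F12 for 7. TYKNU and CH1 were grown in DMEM with 10% fetal bovine serum (FBS), and OV17R in DMEM/F12 with 5% FBS, 0.4 µg/ml hydrocortisone and 10 µg/ml insulin. OV7 and OV56, also in DMEM/F12 with 5% FBS, had 0.5 µg/ml hydrocortisone and 10 µg/ml insulin. OVCAR2, OVCAR3 and OVCAR5 had 10 µg/ml insulin, OAW28 and OAW42 0.7 µg/ml, and EFO21 and OVCAR3 20% FBS. UWB1.289 was grown in a mixture of RPMI and MEGM with 3% FBS, and TOV112D in one of MCDB105 and M199. Each line is a culture of tumour cells without a vessel or stroma, and no source used here says if both arrays of a line stem from 1 culture or from several, so a spread between them may be technical.

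Endothelial cells are held to each other by adhesion proteins such as PECAM1, VE-cadherin, claudin-5 and ESAM, and they sense growth factors through 2 families of receptor tyrosine kinases. FLT1 and KDR bind vascular endothelial growth factors (VEGF), KDR being the main signalling receptor, while TEK binds the angiopoietins and TIE1 is its partner receptor. Transcription factors of the ETS family, among them ERG and FLI1, maintain this programme in endothelium. Blood stem cells and platelets share some of these genes, CD34 and PECAM1 among them.

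The promoters of the 4 receptor genes, which were raised together in TYKNU, OV17R and CH1, are shown with the ETS core GGAA, or TTCC where it lies on the other strand, in capitals. Each window runs from 250 bases before to 50 bases after a RefSeq transcript start in GRCh38.p14. The KDR window is chr4:55125546-55125845 on the minus strand, FLT1 is chr13:28495079-28495378 on the minus strand, TEK is chr9:27108975-27109274 on the plus strand and TIE1 is chr1:43300732-43301031 on the plus strand.
KDR: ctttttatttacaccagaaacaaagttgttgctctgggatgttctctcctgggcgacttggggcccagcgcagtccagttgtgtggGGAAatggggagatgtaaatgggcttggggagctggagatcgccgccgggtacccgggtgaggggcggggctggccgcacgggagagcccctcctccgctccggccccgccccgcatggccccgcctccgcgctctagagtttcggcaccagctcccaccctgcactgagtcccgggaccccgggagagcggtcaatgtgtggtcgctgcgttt
FLT1: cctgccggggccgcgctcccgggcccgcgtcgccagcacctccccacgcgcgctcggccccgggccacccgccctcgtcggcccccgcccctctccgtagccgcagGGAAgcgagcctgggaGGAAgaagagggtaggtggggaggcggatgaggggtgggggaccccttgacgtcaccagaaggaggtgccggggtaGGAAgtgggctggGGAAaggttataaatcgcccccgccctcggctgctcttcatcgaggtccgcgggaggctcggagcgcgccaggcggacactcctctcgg
TEK: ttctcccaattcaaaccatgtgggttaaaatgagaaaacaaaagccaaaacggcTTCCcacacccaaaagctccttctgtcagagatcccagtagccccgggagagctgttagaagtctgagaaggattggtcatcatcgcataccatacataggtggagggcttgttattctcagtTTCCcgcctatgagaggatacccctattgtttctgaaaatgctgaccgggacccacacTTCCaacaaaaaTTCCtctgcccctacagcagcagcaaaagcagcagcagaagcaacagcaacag
TIE1: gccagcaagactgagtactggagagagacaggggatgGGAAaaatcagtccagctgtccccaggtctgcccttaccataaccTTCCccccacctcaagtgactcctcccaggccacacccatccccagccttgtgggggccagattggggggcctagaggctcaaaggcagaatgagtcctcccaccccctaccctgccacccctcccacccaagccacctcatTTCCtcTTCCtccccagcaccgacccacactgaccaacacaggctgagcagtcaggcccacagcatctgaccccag
The core matched once in the KDR window and 4 times in each of the FLT1, TEK and TIE1 windows. TEK has a second window in the table, chr9:27109200-27109499, with 7 matches, which is not printed. Of 35114 promoter windows of the same length, 95.5% hold this core at least once on either strand, with a median of 3 matches, so its presence does not set these promoters apart. The longer form AGGAAG, or CTTCCT on the other strand, which contains the core, is held by 33.7% of all windows, matched 2 times in FLT1 and 1 time in TIE1, and did not occur in the KDR and TEK windows. The table also holds CD34 and EGFL7, and 6 of the 10 genes were matched in it in all. PECAM1, VWF, CLDN5 and ESAM were not matched.

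For 7 of the 10 genes most lines lay near the gene's own median and a few lines lay far above it. A gene is called raised in a line here where both arrays lay at least 1 log2 unit (2-fold) above the median of the gene's 28 line means, and strongly raised where both lay at least 2 log2 units (4-fold) above it. Of the 280 pairs of a gene and a line, 26 were raised, or 9.29%, against 3.35% of such pairs over all genes. The genes were chosen for high values in some lines, so nothing is read from that difference. The raised pairs fell in 10 lines, 5 of them with 1 gene, and 18 lines had none. TYKNU had 6 raised genes, OV17R 5, CH1 5 and OVCAR5 3, and EFO21 had 2. The array values carry no background calls. As a rough guide, since probes differ in affinity, the 95th percentile of the levels of 358 olfactory receptor genes, which few tissues express, was 5.47. The line mean lay below it in 27 of 28 lines for VWF, 26 for FLT1, 25 for TEK and CD34, 24 for KDR, 22 for PECAM1, 13 for TIE1, 7 for ESAM and 0 for CLDN5 and EGFL7. Differences from medians below that level are therefore given in log2 units and not as folds of expression, and levels of different genes, which come from different probes, are not compared. In a bulk culture, fewer cells with a transcript and less transcript in each cell cannot be told apart.

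**Figure D1:**
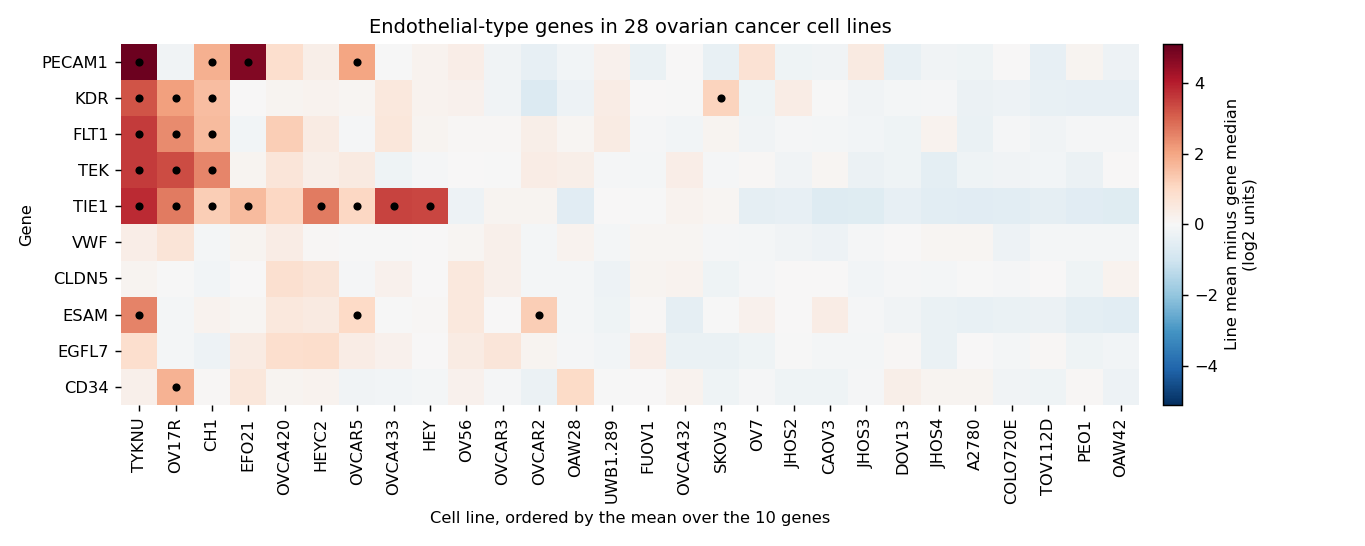
Difference of each line's mean level from the gene's median over 28 lines (colour, log2 units) for the 10 genes (rows) in the cell lines (columns, ordered by the mean over the genes), with black dots for the 26 pairs raised on both arrays. TYKNU, OV17R and CH1 share dots at KDR, FLT1, TEK and TIE1, and TIE1 is the gene with most dots, in 8 lines.

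3 arrays stood apart from their duplicates: array 1 of HEYC2, array 2 of OV56 and array 1 of OVCA420. The SD of all values was 1.84 to 1.89 log2 units on these and 2.09 to 2.32 on the remaining arrays, and all 10 genes were higher on them than on the duplicate, against 57.6% to 60.8% of all genes. OVCA420 had 8 of the 10 genes at least 1 log2 unit above the median on array 1 and 0 on array 2. The rule that both arrays be raised kept these 8 out of the count, and without the 3 arrays the count was again 26, all of them the same pairs. Without them 0 of the 10 genes were called in either test below, and the mean differences over the 10 genes were 2.39 in TYKNU and 1.30 in OV17R, against 2.33 and 1.25 with them.

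**Figure D2:**
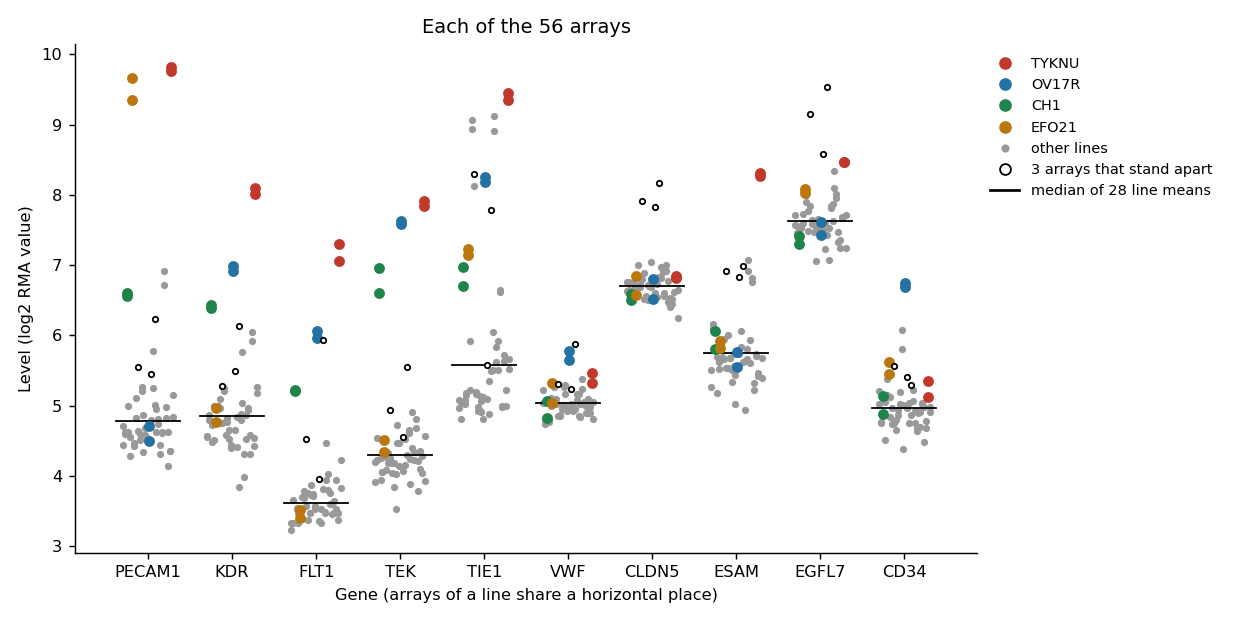
Level (log2 RMA value) of each of the 10 genes on every array, with the arrays of TYKNU, OV17R, CH1 and EFO21 in colour, the 3 arrays that stand apart as open circles and a line at the median of the 28 line means. Both arrays of TYKNU, OV17R and CH1 lie above all other arrays for TEK, and the highest arrays of CLDN5 and EGFL7 are open circles.

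TYKNU held the highest level of both VEGF receptors. KDR (gene ID 3791) read 8.02 and 8.10 on its 2 arrays, against a median of 4.85 over the 28 lines, a difference of 3.20 log2 units. OV17R followed at 6.92 and 6.98, CH1 at 6.43 and 6.39 and SKOV3 at 5.92 and 6.05. The arrays of these 4 lines did not overlap, SKOV3 being raised by little more than the threshold. OVCA433 had one array close to SKOV3, at 5.76, and the other at 5.03. The remaining lines lay between 4.15 in OVCAR2 and 5.22 in JHOS2, OVCA420 being at 6.13 on the array that stands apart and 3.84 on the other.

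FLT1 (gene ID 2321), the VEGF receptor that also exists as a soluble trap for the ligand, was raised in the same first 3 lines and in the same order. TYKNU read 7.31 and 7.06, or 3.57 log2 units above the median of 3.61. OV17R read 5.96 and 6.06, and CH1 read 5.23 and 5.20. The mean of CH1, 5.21, lay below the olfactory receptor guide of 5.47, so it is uncertain that CH1 expressed FLT1, although it met the rule for raised. These 3 lines did not overlap each other, while OVCA420 reached 5.93 on array 1 and 3.82 on array 2. SKOV3 was not among the lines with raised FLT1.

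TEK (gene ID 7010), the angiopoietin receptor also called TIE2, separated the same 3 lines most clearly. TYKNU read 7.91 and 7.84, OV17R 7.63 and 7.59, and CH1 6.95 and 6.60, against a median of 4.29. All 3 were strongly raised, by 3.58, 3.32 and 2.49 log2 units. Among the other 25 lines the highest mean was that of OVCA420, with arrays at 5.55 and 4.29, and the lowest was 3.78 in JHOS4.

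TIE1 (gene ID 7075) was raised in more lines than any other of the 10 genes, in 8, and strongly raised in 5. TYKNU read 9.36 and 9.45, OVCA433 9.12 and 8.91 and HEY 8.94 and 9.07, against a median of 5.58. The arrays of OVCA433 and HEY overlapped, so their order is within the spread of arrays, and both lay below TYKNU. OV17R at 8.25 and 8.18 and HEYC2 at 8.30 and 8.12 overlapped in the same way, HEYC2 having a name derived from HEY. EFO21 read 7.23 and 7.14, CH1 6.71 and 6.98, and OVCAR5 was the eighth line. In OVCA433, HEY and HEYC2 TIE1 was the only one of the 10 genes raised, so high TIE1 also occurred without high KDR, FLT1 or TEK.

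PECAM1 (gene ID 5175), an adhesion molecule of endothelial cells, platelets and white blood cells, was far above its median in TYKNU and EFO21. TYKNU read 9.76 and 9.82, or 5.01 log2 units above the median of 4.78. EFO21 read 9.36 and 9.66, or 4.73 above it, OVCAR5 read 6.71 and 6.91, and CH1 read 6.60 and 6.56. OV17R, which shared 4 receptor genes with TYKNU, read 4.71 and 4.50 and lay below the median. A second, dimmer probe set of PECAM1 with a median of 2.77 was also highest in TYKNU, at 4.91, but read 3.23 in EFO21, 3.31 in OVCAR5 and 2.84 in CH1. The probe sets therefore disagree on EFO21, OVCAR5 and CH1, and with the mean of both the difference was 3.59 log2 units in TYKNU and 2.61 in EFO21.

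ESAM (gene ID 90952), an adhesion molecule of endothelial tight junctions and platelets, was strongly raised in TYKNU, at 8.31 and 8.27 against a median of 5.75. OVCAR2 at 7.08 and 6.91 and OVCAR5 at 6.81 and 6.76 were the other lines with raised ESAM. Their arrays did not overlap those of TYKNU. OV17R read 5.77 and 5.54 and CH1 read 5.81 and 6.06, so the lines that shared receptor genes with TYKNU did not share ESAM.

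CD34 (gene ID 947), a sialomucin of blood stem cells and vessels, was raised in OV17R alone, at 6.69 and 6.75 against a median of 4.96. OAW28 lay just outside the threshold, with arrays at 6.08 and 5.81 and a mean 0.98 log2 units above the median. TYKNU read 5.12 and 5.35, and the other lines lay lower than EFO21, whose arrays read 5.45 and 5.62, on their means.

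VWF, CLDN5 and EGFL7 were raised on both arrays of no line. VWF (gene ID 7450), the clotting protein that endothelial cells store, ranged over 0.94 log2 units from CAOV3 to OV17R, where it read 5.77 and 5.65 against a median of 5.04. CLDN5 (gene ID 7122), the claudin of endothelial tight junctions, had its 3 highest means in OVCA420, HEYC2 and OV56, and each came from the array that stands apart (8.17, 7.91 and 7.83, against 6.83, 6.81 and 6.60 on the duplicates). For EGFL7 (gene ID 51162), a matrix protein secreted by endothelial cells, TYKNU read 8.47 and 8.46 against a median of 7.62, which missed the threshold. MIR126, the microRNA gene that lies inside EGFL7, ranged from 3.20 to 4.43 and was likewise raised in no line. Leaving out array 2 of every line, which keeps 2 of the arrays that stand apart, left VWF as the only gene raised in no line.

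Summed over the 10 genes, TYKNU stood highest. Its mean difference from the medians was 2.33 log2 units, with 2.34 on array 1 and 2.33 on array 2, and all 6 of its raised genes were strongly raised. OV17R followed at 1.25, with 1.30 and 1.20 on its arrays, and had 4 strongly raised genes, KDR, FLT1, TEK and TIE1. CH1 was at 0.844 and EFO21 at 0.760. The 28 lines reached down to -0.221 in OAW42. OVCA420 followed EFO21 at 0.664, which came from 1.43 on array 1 and -0.103 on array 2. Over all 18377 genes, 3.26% were raised in TYKNU, 3.77% in OV17R and 3.8% in CH1, and 0.833% and 0.958% were strongly raised in TYKNU and OV17R, values that describe the lines and not the 10 chosen genes.

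**Figure D3:**
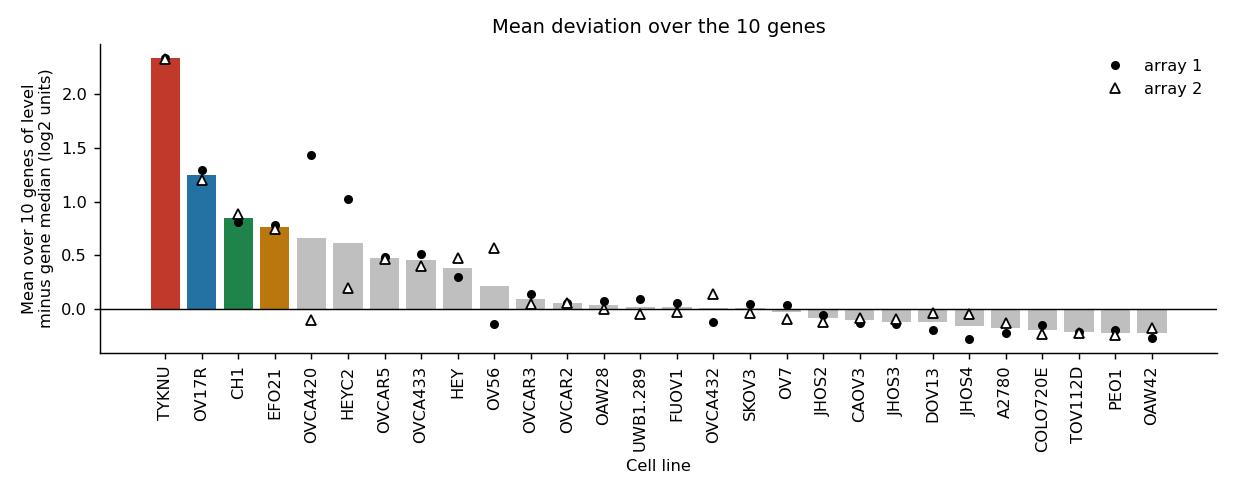
Mean over the 10 genes of the level minus the gene's median (log2 units), where a bar gives the mean of both arrays of a cell line and symbols give each array. TYKNU stands at 2.33 and OV17R at 1.25, and the arrays of OVCA420, HEYC2 and OV56 lie far apart.

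KDR, FLT1 and TEK were high in the same few lines. Among all genes, those most like FLT1 over the 28 line means were TEK (Pearson's r = 0.924) and KDR (r = 0.894), and KDR and TEK had r = 0.861. The points share arrays and a few high lines. Without TYKNU and OV17R the values were 0.742 for FLT1 and TEK, 0.613 for KDR and FLT1 and 0.555 for KDR and TEK. These values still hold CH1, where all 3 genes were raised, and the array of OVCA420 that stands apart. TIE1 was most like PIK3CG (r = 0.822), a catalytic subunit of phosphoinositide 3-kinase, and ADAMTSL1 (r = 0.792).

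The other raised genes had partners outside the list. PECAM1 was most like BMP6 (r = 0.854), a bone morphogenetic protein that was highest in EFO21, and TM4SF18 (r = 0.820). ESAM was most like PROCR (r = 0.894), the endothelial protein C receptor, and VAMP5 (r = 0.858), both of them highest in TYKNU. CD34 was most like ITIH5 (r = 0.885) and MAGEA4 (r = 0.790), a cancer-testis antigen that was highest in OV17R. Without TYKNU these 6 values lay between 0.729 and 0.891. OV17R, the only line with raised CD34, and EFO21, where PECAM1 and BMP6 were both high, were kept. The range therefore cannot show how far the values of CD34, or that of PECAM1 and BMP6, rest on a single line.

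Genes outside the 10 that are also known from endothelium were raised in TYKNU more often than in OV17R or CH1. Of 30 other surface and secreted genes of endothelium, 14 were raised in TYKNU, 6 in OV17R and 2 in CH1, and their median differences from the gene medians were 0.38, 0.03 and -0.02 log2 units, against 0.01, 0.00 and -0.03 over all genes. Over all genes, 3.26%, 3.77% and 3.8% were raised in these lines, and the 2 of CH1 are near that share. The list itself was raised more often than all genes, in 8.45% of its pairs of a gene and a line. By the mean difference of the list, TYKNU ranked highest of all lines at 1.37 log2 units. OV17R ranked 5 at 0.514, so other lines stood above it for this list. CDH5, which encodes VE-cadherin, read 9.25 and 9.31 in TYKNU and 8.80 and 8.67 in OV17R, against a median of 5.63, and 0.76 log2 units above it in CH1. CDH5 was raised in 8 lines in all. In TYKNU, MMRN1, a multimerin of platelets and endothelium, stood 4.63 log2 units above its median, ICAM2, an adhesion molecule, 4.42, and PROCR 3.56. CD93, MMRN2, S1PR1 and PALMD were also strongly raised there, by 2.91 to 3.96 log2 units. Of these, only CD93 was highest in TYKNU. MMRN2 was highest in OVCAR5, S1PR1 in HEY and PALMD, raised in 9 lines, in EFO21.

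OV17R differed in which of these genes it carried. JAM2, a junctional adhesion molecule, stood 2.22 log2 units above its median in OV17R and -0.10 from it in TYKNU. TMEM100 stood 3.03 above its median in OV17R, and CALCRL, the receptor of adrenomedullin and related peptides, 2.80. None of these genes was highest in OV17R. JAM2 was highest in TOV112D, TMEM100 in OVCAR3 and CALCRL in OAW42, and CALCRL also stood 2.01 log2 units above its median in TYKNU. ICAM2, MMRN1, CD93 and PROCR lay between -0.40 and 0.19 log2 units from their medians in OV17R. 3 of the 30 genes, CDH5, CALCRL and PALMD, were raised in both lines. The 2 raised in CH1 were ADGRL4 and GJA5.

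Of 21 transcription factors of endothelium that were measured, 7 were raised in TYKNU, 3 in OV17R and 1 in CH1. That of CH1 was near the share of all genes raised there. Over all lines, 7.82% of the pairs of this list were raised. By the mean difference of the list, TYKNU ranked highest at 0.821 log2 units, and OV17R ranked only 11 at 0.203. ERG, the ETS factor that marks endothelial nuclei, read 7.04 and 7.43 in TYKNU and 6.80 and 6.75 in OV17R, against a median of 4.78, and lay -0.32 log2 units from it in CH1. FLI1, its close relative, stood 3.95 log2 units above its median in TYKNU, 2.67 in OV17R and 2.20 in CH1, and was raised in 10 lines. In TYKNU, HHEX and MEF2C were strongly raised too, by 2.80 and 2.54. SOX17 completed the 3 of OV17R, and the 1 of CH1 was FLI1. SOX17 was raised in 7 lines with its highest level in OVCA432, and it is also counted below among the ovarian and epithelial tumour markers. NR2F2 was not analysed here.

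A further list of 20 measured genes held VEGF and angiopoietin ligands, other VEGF receptors and co-receptors, and also genes of Notch, ephrin, PDGF and apelin signalling. Of these 20 genes, 4 were raised in TYKNU, 1 in OV17R and 4 in CH1, so the counts are not of ligands and partners of the receptors above alone. Over all genes the shares were 3.26%, 3.77% and 3.8%, while over all lines 9.46% of the pairs of this list were raised. The list's median differences were 0.02, 0.00 and -0.02 log2 units. By its mean difference TYKNU ranked 10 and OV17R 21 among the lines, so neither stood out for this list. ANGPT2, an angiopoietin that endothelial cells make, read 9.10 and 9.12 in TYKNU against a median of 4.67, and stood 1.66 log2 units above it in CH1 and 0.07 in OV17R. APLN, the ligand apelin, stood 2.90 above its median in TYKNU, and SVEP1, a matrix protein, 2.63 in OV17R. VEGFA ranged from 6.35 to 9.39 over the lines with its highest level in OV7, VEGFB from 7.76 to 9.53, VEGFC from 5.71 to 10.05, PGF from 5.78 to 7.63 and ANGPT1 from 4.10 to 7.08. Of the VEGF ligands VEGFC was the only one raised in TYKNU, by 1.55, and DLL4, a Notch ligand, completed the 4 of that line. The 4 of CH1 were ANGPT2, NRP2, APLNR and EFNB2. FLT4, the receptor of lymphatic endothelium, ranged from 5.38 to 6.80 and was raised in no line. The co-receptors NRP1 and NRP2 ranged from 4.97 to 10.72 and from 5.00 to 8.76, and in TYKNU and OV17R both lay below their medians, by 1.18 to 2.01 log2 units.

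**Figure D4:**
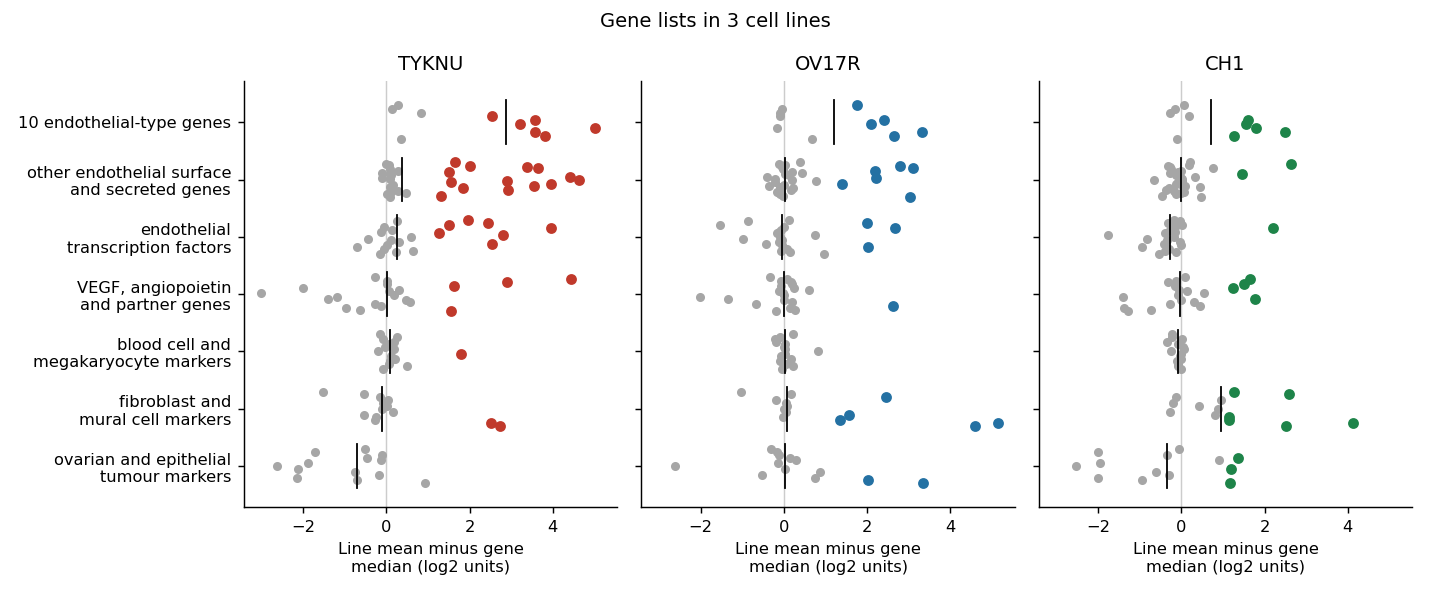
Line mean minus gene median (log2 units, horizontal axis) of each gene in 7 lists (rows) in TYKNU, OV17R and CH1, with coloured points for genes raised on both arrays, grey points for the others and a black bar at the median of the list. In TYKNU 14 of 30 other endothelial surface genes and 7 of 21 transcription factors are coloured, and in OV17R and CH1 the fibroblast and mural cell list holds 5 and 6 coloured points of 13.

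Markers of other cell types were read beside these lists. Of 15 measured blood cell and megakaryocyte markers, 1 was raised in TYKNU and 0 in OV17R and CH1. Over all lines 2.62% of the pairs of this list were raised. The mean difference of the list ran from -0.129 to 0.559 log2 units over the lines, the highest being OVCA420. PTPRC, the common antigen of white blood cells, ranged from 2.80 to 3.93 in all lines, and the raised gene was LYZ, chosen for mention after its values were seen, which read 4.86 and 5.08 in TYKNU. Of 13 fibroblast and mural cell markers, 2 were raised in TYKNU, 5 in OV17R and 6 in CH1. Over all genes 3.26%, 3.77% and 3.8% were raised in these lines, while over all lines 12.9% of the pairs of this list were raised. RGS5, a marker of pericytes, stood 2.51 log2 units above its median in TYKNU, 5.14 in OV17R and 4.12 in CH1, and THY1 stood 2.72, 4.59 and 2.52 above its own. RGS5 was raised in 7 lines, with its highest level in FUOV1, and THY1 was raised in 9. COL3A1, a fibrillar collagen, stood 2.45 above its median in OV17R and -0.15 from it in TYKNU. PDGFRB and NOTCH3 completed the 5 of OV17R. The mean difference of this list ran from -0.192 to 1.52 over the lines, the highest in OV7, with 0.155 in TYKNU, 1.09 in OV17R and 1.18 in CH1. Its part in the levels of the 10 genes was not tested.

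Of the lists, that of ovarian and epithelial tumour markers had the lowest median in TYKNU. Of 13 such markers, 0 were raised in TYKNU, 2 in OV17R and 3 in CH1, and the median differences were -0.71, 0.04 and -0.34 log2 units. Over all genes 3.26%, 3.77% and 3.8% were raised in these lines. Over all lines 20.3% of the pairs of this list were raised, the highest share of the lists, so the counts of OV17R and CH1 do not stand out. PAX8, a lineage factor of the Müllerian tract, read 7.01 and 6.89 in TYKNU and 9.85 and 9.83 in OV17R, against a median of 9.08. KRT8, an epithelial keratin, read 10.22 and 10.31 in TYKNU and 12.44 and 12.43 in OV17R, against 12.40. EPCAM read 7.10 and 7.30 in TYKNU and 8.69 and 8.79 in OV17R, against 8.91. The arrays of both lines did not overlap for PAX8, KRT8 and EPCAM, TYKNU being lower for each. KRT7, another keratin, was low in both lines, at 7.42 and 7.37 in TYKNU and 7.40 and 7.41 in OV17R against a median of 10.03, and MUC16 and ESR1 had the higher mean in TYKNU. WT1, which serous ovarian tumours often express, was strongly raised in OV17R, by 3.35, and SOX17 was the other of its 2 genes. In TYKNU, WT1 stood 0.94 log2 units above its median without being raised, and was the only marker of the list above its median. KRT18, a further keratin, lay close to its median there, at -0.12 log2 units. The 3 of CH1 were WT1, KRT8 and FOLR1.

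The study arranged ovarian cancer lines by an epithelial-mesenchymal transition (EMT) score, and the question put to the 10 genes was whether their levels ran along it. The rule that chose them did not use the score. An array's score was computed from 200 mesenchymal and 184 epithelial genes of the study's signature, 0 of them among the 10, and is higher where the mesenchymal genes lie higher. The list these were taken from is shorter than the signature that the study's text describes, so the score rests on part of it. None of the 10 genes was called at an adjusted p under 0.05 by Spearman's rho with 100000 permutations, and 0 had an unadjusted p under 0.05 by that test. Over all genes, 0.125% were called higher along the score and 0.686% lower. TEK had the highest rho, 0.292 (permutation p = 0.131, adjusted p = 0.678), with Pearson's r = 0.365 (permutation p = 0.056, adjusted p = 0.541) and r = 0.399 when TOV112D and PEO1, which scored highest and lowest, were left out. The slope that limma gave for TEK was 0.82 ± 0.39 (log2 units for each unit of the score, ± standard error), with a p under 0.05 before adjustment and an adjusted p = 0.498.

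The rho of TIE1 was 0.269 (adjusted p = 0.719, permutation p = 0.166) and that of CD34 was the lowest, -0.127 (adjusted p = 0.910, permutation p = 0.516), with Pearson's r of 0.260 (permutation p = 0.182) and -0.021 (permutation p = 0.922). 5 of the 10 genes had a positive rho. The lines with raised KDR, FLT1 and TEK scored above 0, TYKNU at 0.405, OV17R at 0.418 and CH1 at 0.584, ranks 21, 22 and 25 of 28 from the epithelial side, while EFO21 with its high PECAM1 sat at -0.147. Of the other lines with strongly raised TIE1, HEY sat at 0.636, HEYC2 at 0.242 and OVCA433 at -0.614. The score of HEYC2 came from -0.212 on the array that stands apart and 0.695 on its duplicate. In FUOV1, OV7, OAW42 and OV56 the score also differed in sign between the 2 arrays, so the place of these lines along it is uncertain. Within base media the rho of TEK was 0.370 in 10 DMEM lines (permutation p = 0.294), -0.10 in 9 RPMI lines (exact permutation p = 0.810) and 0.857 in 7 DMEM/F12 lines (exact permutation p = 0.0238, adjusted p = 1 over all genes). Without TYKNU and OV17R it was 0.246. No gene of the other endothelial lists was called. Of the 13 ovarian and epithelial markers, 5 (EPCAM, KRT19, MUC16, CDH1 and KRT7) fell along the score at adjusted p of 0.0141 to 0.0349 (Spearman permutation test). The study names EPCAM, KRT19, CDH1 and KRT7 among its epithelial signature genes, from which the score was computed. Their fall along it was therefore built in, and nothing is read from it.

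**Figure D5:**
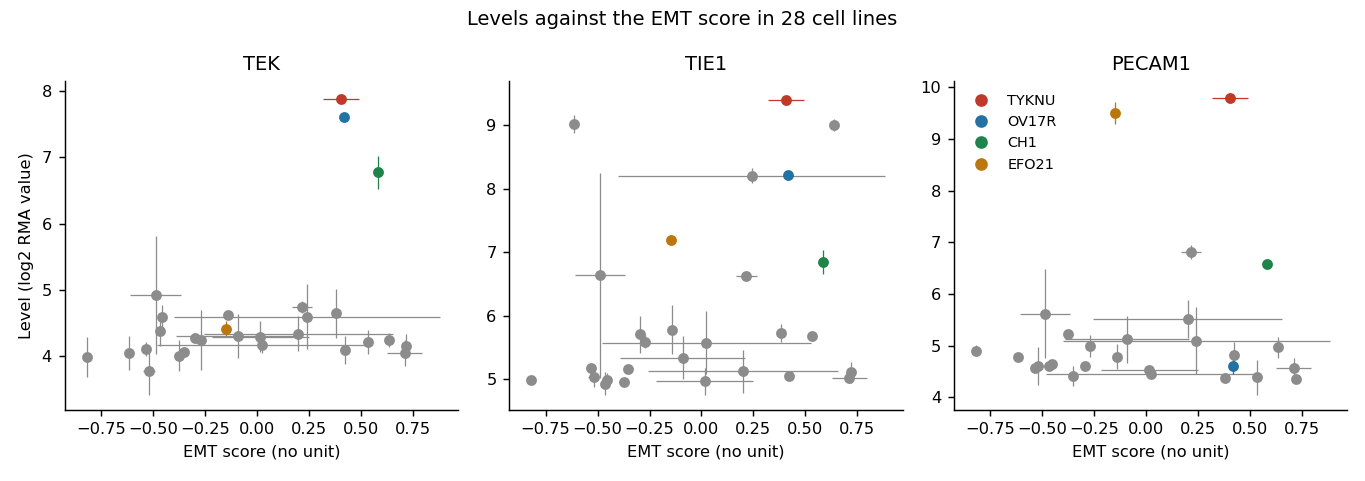
Level (log2 RMA value) of TEK, TIE1 and PECAM1 against the EMT score (no unit) in 28 cell lines, with points for line means and bars for the SD of the 2 arrays on each axis. TYKNU, OV17R and CH1 lie at scores of 0.405 to 0.584 and rise above the other lines for TEK, and lines with high TIE1 or PECAM1 also lie below a score of 0.

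The labels also give the growth medium, and the lines were compared by base medium. Serum, hydrocortisone and insulin, which differ between lines within a base medium, were not tested on their own. KDR had its mean at 5.43 ± 1.12 (SD, n = 10) in DMEM lines, 4.70 ± 0.29 (SD, n = 9) in RPMI lines and 5.17 ± 0.81 (SD, n = 7) in DMEM/F12 lines. This was the smallest p among the 10 genes by limma's moderated F test over 26 lines (adjusted p = 1.00). None of the 10 genes was called, none had an unadjusted p under 0.05, and 0% of all genes were called, with 350 of 18377 genes (1.90%) at an unadjusted p under 0.05. A permutation test of the Kruskal-Wallis statistic also called 0 genes. TYKNU and OV17R were grown in different media. DMEM and RPMI each held lines with and without raised genes, though in RPMI no line had raised KDR, FLT1 or TEK. In DMEM/F12 OV17R was the only line with any raised gene. UWB1.289 and TOV112D, each alone in its medium, had none.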

How the data were processed

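RNA of 28 ovarian cancer cell lines was hybridised to 56 arrays. The deposited values are log2 intensities from 1.35 to 14.89, which the authors made by RMA with affy 1.42.3 according to their processing notes. Which arrays were normalized together and any genome build are not given in the sources used here. The number of arrays limits the precision, and p-values between lines measure the spread between cultures of different lines.

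Of 28869 probe sets, 19310 carry 1 gene, 1752 several and 7807 none that is listed. The first gave 18377 genes, with symbols updated by gene ID for 19279 probe sets. Where a gene had more than 1 probe set, that with the highest mean over all arrays stood for it. Levels of a line are means of its 2 arrays. The EMT score was the signed Kolmogorov-Smirnov statistic between mesenchymal and epithelial signature genes centred on their medians. The study's gene list names the signature genes, and the form of the score is a reconstruction.

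Spearman's rho was tested two-sided with 100000 permutations of the score, and base media with limma's moderated F test with trend and robust settings, both adjusted by Benjamini-Hochberg over all genes at 0.05. Scripts were tested on simulated data. The 10 genes, the gene lists and the thresholds were chosen with earlier results of these data known. Named are the 10 genes, genes of the other lists strongly raised in TYKNU or OV17R or called, defining markers of each cell type, the VEGF and angiopoietin ligands and receptors, and for each raised gene the 2 most like it by Pearson's r. Genes that complete a count of 5 or fewer were named after their values were seen. VEGFD and CD33 were not analysed here. Promoter sequences are from RefSeq.

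Alternatives were the mean over probe sets, a further quantile normalization, each array number left out, the 3 arrays that stand apart left out, other thresholds, a filter on low values, HEY and HEYC2 merged, TYKNU and OV17R left out, other forms of the score, Pearson's r, limma slopes, lines within or centred on base media, a replicate block, limma without trend and robust settings and the Kruskal-Wallis statistic. Fits used limma 3.58.1 and statmod 1.5.0 in R 4.3.3, and all else Python 3.11.15 with pandas 2.3.3, numpy 2.4.6, matplotlib 3.10.9 and scipy 1.17.1.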

Additional observations from a re-analysis of the deposited data

Results flagged for a closer look

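Within each base medium, each of the 10 genes was checked for a line whose gap to the next line was large against the range of the group (Dixon's criterion), which made 30 group checks. Chance flags about 1 in 20 such groups, and 12 were found. The genes were chosen for lines with high values, so these are values and not a test. OV17R was the highest of the DMEM/F12 lines by this criterion for 6 genes, KDR at 6.95, FLT1 at 6.01, TEK at 7.61, TIE1 at 8.22, VWF at 5.71 and CD34 at 6.72. VWF is among them although its gap to the next line was 0.57 log2 units and it was not raised in OV17R.

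TYKNU met the criterion among the DMEM lines for 3 genes, PECAM1 at 9.79, FLT1 at 7.18 and ESAM at 8.29. EFO21 stood out among the RPMI lines for PECAM1, at 9.51, and OAW28 among the DMEM lines for CD34, at 5.94. OVCA420 stood out among the DMEM lines for CLDN5, at 7.50, a mean of 8.17 on the array that stands apart and 6.83 on its duplicate.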

How the results depend on the processing

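None of the 10 genes was called along the EMT score or between base media under any alternative run, while the number of all genes called along the score ran from 0 within each base medium and 50 without the 2 lines farthest from the median score to 565, and was 149 as reported. The replicate numbers do not pair the lines: over 378 pairs of lines the differences between array 1 and array 2 correlated from -0.887 to 0.871, with 24.1% above 0.1. With the replicate block, limma over 56 arrays called 0 of the 10 genes along the score, with TEK under 0.05 before adjustment and at an adjusted p of 0.149, and 0 between media, against 565 and 0 of all genes. limma slopes on line means called 202 genes along the score. Without replicate 1, 1 gene of all was called between media, and it is none of the 10. Of 54 values of the relation of TEK, TIE1 and CD34 to the score, 2 turned direction, TEK within RPMI (rho -0.10) and CD34 within DMEM/F12 (rho 0.464), and the cause was not tested. The rho of TEK was 0.0525 without replicate 2 and 0.484 without replicate 1.

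The count of raised pairs was 15 at a threshold of 2 log2 units and 21 at 1.5, 25 with the mean over probe sets, and 28 and 39 without replicate 1 and without replicate 2. All 26 pairs were among the 39, and 8 of those added fell in OVCA420, which then ranked above OV17R. The mean difference of TYKNU was 2.19 with the mean over probe sets, 2.34 with a further quantile normalization, 2.39 without the 3 arrays that stand apart, 2.87 as a median over the genes, 2.04 without the gene with the largest difference, and 2.35 without either replicate. That of OV17R was 1.02 without the gene with the largest difference and lay between 1.22 and 1.31 under the other alternatives. Of the 15 strongly raised pairs none turned direction, and PECAM1 in EFO21 moved most, to 2.61 log2 units with the mean over probe sets.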
